A study of Mus musculus with 11 samples.

Results

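The receptors of the interleukin-6 (IL-6) cytokine family were examined in retinal vascular endothelial cells through the 7 genes Il6st, Osmr, Lifr, Il6ra, Il11ra1, Il27ra and Cntfr. The genes were chosen by name as the subunits of these receptors, and all 7 were found among the 55359 genes in the count data. The samples were CD31-positive, CD45-negative cells sorted from C57BL/6 mice (C57BL/6J in the study's methods) in the oxygen-induced retinopathy (OIR) model, in which exposure of pups to high oxygen leads to loss and then overgrowth of retinal vessels. At postnatal day (P) 12, 5 mice (mice 1, 2, 5, 6 and 9) had been injected intravitreally with 0.5 µL of oncostatin M (OSM) at 100 ng/µL and 6 mice (mice 3, 4, 7, 8, 10 and 11) with 0.5 µL of PBS, and cells were collected at P17. All mice had therefore been through OIR, and a group kept in room air was not analysed here. Each sample pooled both retinas of 1 mouse. The study's methods describe PBS injection of the opposite eye as the control for its in vivo work, and how this applied to the sequenced mice is not given in the sources used here. The mice came from 3 litters, with mice 1 to 4 in litter 1, mice 5 to 8 in litter 2 and mice 9 to 11 in litter 3, and litter cannot be told apart from OIR run.

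Gp130, the product of Il6st, is the signal-transducing chain shared by most of the family. Ligand binding brings gp130 together with a second chain, which activates Janus kinases and the transcription factor STAT3. In the mouse, OSM signals mainly through gp130 paired with the OSM receptor chain OSMR, whereas leukemia inhibitory factor (LIF) uses gp130 with LIFR. IL-27RA is the partner of gp130 for IL-27. The products of Il6ra, Il11ra1 and Cntfr bind IL-6, IL-11 and ciliary neurotrophic factor (CNTF) without signaling themselves. A soluble form of the IL-6 receptor also allows cells that lack their own to respond to IL-6.

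On GRCm39, Il6st (ENSMUSG00000021756) lies at chr13:112600604-112646620 on the plus strand. Osmr (ENSMUSG00000022146, chr15:6843053-6904450, minus strand) and Lifr (ENSMUSG00000054263, chr15:7120095-7226970, plus strand) are neighbors on chromosome 15, with 215644 bases between them. Cntfr (ENSMUSG00000028444, chr4:41657498-41697089, minus strand) and Il11ra1 (ENSMUSG00000073889, chr4:41699989-41769485, plus strand) are 2899 bases apart on chromosome 4. Il6ra (ENSMUSG00000027947) lies at chr3:89771366-89820719 and Il27ra (ENSMUSG00000005465) at chr8:84756916-84769253, both on the minus strand. Exons of Lifr shared 1530 bases, or 11.1% of their length, with the antisense gene Gm62219, and reads from that gene could not be told apart from those of Lifr. The other members shared at most 5.17% of their exon length with another gene. Il11ra2, a close copy of Il11ra1, had no reads in any mouse, but reads that matched both copies were not counted.

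The 250 bases upstream of the canonical transcription start are shown for gp130, which most ligands share. They are also shown for the signaling partners OSMR and LIFR, the genes on which the ratios turn. Sequences are from GRCm39, in the direction of transcription, with CpG dinucleotides in capitals. The windows are chr13:112600354-112600603 (plus strand) for Il6st, chr15:6904451-6904700 (minus strand) for Osmr and chr15:7158731-7158980 (plus strand) for Lifr.
Il6st: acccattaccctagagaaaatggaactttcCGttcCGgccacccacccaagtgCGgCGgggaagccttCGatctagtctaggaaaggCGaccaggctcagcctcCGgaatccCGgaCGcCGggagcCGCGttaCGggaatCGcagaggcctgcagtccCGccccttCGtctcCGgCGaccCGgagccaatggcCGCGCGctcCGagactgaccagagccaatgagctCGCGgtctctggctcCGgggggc
Osmr: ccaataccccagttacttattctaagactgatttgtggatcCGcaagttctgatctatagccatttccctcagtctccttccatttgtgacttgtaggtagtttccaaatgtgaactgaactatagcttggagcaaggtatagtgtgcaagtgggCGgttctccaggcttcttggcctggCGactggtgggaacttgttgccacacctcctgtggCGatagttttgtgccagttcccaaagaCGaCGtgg
Lifr: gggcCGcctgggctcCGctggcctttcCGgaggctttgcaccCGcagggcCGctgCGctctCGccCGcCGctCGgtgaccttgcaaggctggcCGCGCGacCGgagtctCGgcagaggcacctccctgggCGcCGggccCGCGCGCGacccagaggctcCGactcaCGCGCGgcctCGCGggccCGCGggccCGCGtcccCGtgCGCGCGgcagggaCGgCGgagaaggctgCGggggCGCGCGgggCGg
The Osmr window held 6 CpG dinucleotides, against 26 for Il6st and 42 for Lifr. The median over the 21770 protein-coding windows of the same length was 8. The STAT motif TTCNNNGAA, which reads the same on both strands, was searched in all 7 windows and matched in 0 of them, and it was present in 7.7% of all protein-coding windows.

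Total counts were 26697990 to 56033479 reads per mouse. The sorted cells carried the endothelial markers at high levels, with 12297 to 17922 CPM in sum for 10 markers (CPM are reads per gene scaled to the effective library size). Ptprc, which encodes CD45, had between 0 and 22 reads. Transcripts of other cell types were also present. The summed level of 10 mural cell markers ranged from 410 to 831 CPM in the OSM group and from 310.0 to 1737 CPM in the PBS group. Rod markers were highest in mouse 5, at 5044 CPM, against 188 to 1725 CPM in the other mice. The 4 red cell markers summed to 313 to 1024 CPM after OSM and 108 to 534 CPM after PBS. The 10 Müller glia markers summed to 451 to 883 CPM after OSM and 354 to 672 CPM after PBS. Of the 9 tested, 7 had a fitted log2 difference below 0 (median -0.38), but some of these had few reads. Abca8a, counted among the 7, had 2, 113 and 206 reads in PBS-injected mice 3, 10 and 11 and 0 elsewhere. Kcnj10, also among the 7, had 29, 34 and 62 reads in PBS-injected mice 3, 4 and 7, 9 in OSM-injected mouse 1 and 0 elsewhere. Both genes thus passed the filter on low counts only through PBS mice, so their direction carries no information. Glul and Apoe, the markers with the highest levels, were at 0.03 and -0.04. Neuron markers ranged from 170 to 309 CPM after OSM and from 173 to 234 CPM after PBS. Most of each sum came from 1 gene, Rbpms, at 161 to 215 CPM after OSM and 161 to 208 CPM after PBS. The 8 leukocyte and microglia markers reached at most 17.9 CPM in sum.

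Of the 7 subunits, 5 had at least 388 reads in every mouse, and Il6ra and Cntfr had few. To compare levels between genes, CPM was divided by the exon length of the gene in kilobases (kb). Gp130 was the most abundant, with 9.35 ± 2.18 CPM per kb (SD, n = 11 mice), above 78.4% of the 17050 genes tested. Il27ra, at 8.79 ± 1.30 CPM per kb, and Il11ra1, at 8.35 ± 1.88 CPM per kb, were close behind. Il6st exceeded Il27ra in 8 of 11 mice and Il27ra exceeded Il11ra1 in 5 of 11, so the order of these 3 genes did not hold up against the spread between mice. Osmr (3.33 ± 1.52 CPM per kb) and Lifr (3.00 ± 1.17 CPM per kb) were lower, and both Il11ra1 and Il27ra were above Osmr in 11 of 11 mice. Osmr was above Lifr in 7 of 11 mice. When the longest coding transcript of each gene was used as its length, this number was 10 of 11, and the levels were 7.51 and 4.17 CPM per kb. With that length Il11ra1 was above Osmr in 9 of 11 mice and Il27ra in 10 of 11, whereas Il6st remained above Osmr and Lifr in 11 of 11. The position of Osmr therefore depended on which length was used.

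**Figure D1:**
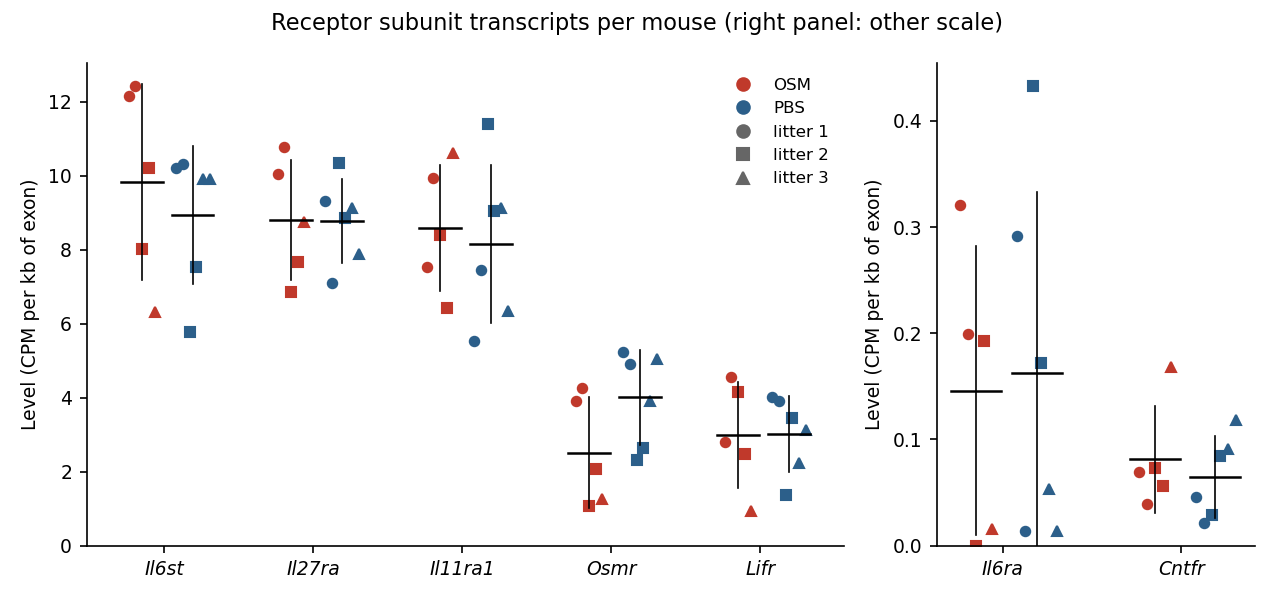
Levels of the 7 receptor subunit transcripts, in CPM per kilobase of exon, with 1 point per mouse (red, OSM; blue, PBS; shape, litter). Horizontal lines are group means and vertical bars 1 SD, which the axis cuts at 0. Il6st, Il27ra and Il11ra1 lie between 5.53 and 12.4 CPM per kb, Osmr and Lifr between 0.934 and 5.24, and Il6ra and Cntfr, drawn on another scale, at 0.433 or less.

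The α-chains for IL-6 and CNTF were the rarest. Il6ra had 99, 61, 0, 49 and 8 reads in OSM-injected mice 1, 2, 5, 6 and 9. It had 68, 4, 125, 53, 16 and 4 reads in PBS-injected mice 3, 4, 7, 8, 10 and 11. Thus 6 mice had 49 reads or more and 5 had 16 or fewer, and both kinds occurred in both groups. Mice 9, 10 and 11, which make up litter 3, were all among those with 16 or fewer. The 0 in mouse 5 allows a level of up to 0.102 CPM (3 counts, counting error only). Cntfr had 18, 10, 16, 12 and 70 reads in the OSM group and 9, 5, 7, 22, 23 and 28 reads in the PBS group. Its level averaged 0.0724 ± 0.0429 CPM per kb (SD, n = 11), above only 6.14% of the genes tested. Mouse 9 held the highest Cntfr level of all.

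Expressed as shares of the summed level of the 7 subunits, Il6st made up 28.1 ± 4.9% (SD, n = 11), Il27ra 26.7 ± 3.2% and Il11ra1 25.6 ± 6.8%. Osmr contributed 9.83 ± 4.10%, with a range of 3.73% to 15.5%, and Lifr 9.03 ± 3.36%, with a range of 3.33% to 14.5%. Il6ra and Cntfr together stayed small, with means of 0.459% and 0.228%. Il27ra was the steadiest of the subunits from mouse to mouse, with a coefficient of variation of 14.8% in CPM. Il11ra1 and Il6st followed, at 22.5% and 23.3%. Lifr and Osmr varied more, at 38.8% and 45.8%, and their highest and lowest mice differed 4.87-fold and 4.93-fold.

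Osmr, which encodes the OSM receptor chain, had the lowest p of the 7 subunits in the comparison of OSM with PBS over all 11 mice. In CPM, Osmr was at 48.5, 53.0, 13.2, 25.6 and 15.6 in OSM-injected mice 1, 2, 5, 6 and 9. PBS-injected mice 3, 4, 7, 8, 10 and 11 had 65.0, 60.8, 28.7, 32.7, 48.4 and 62.5 CPM. Over all 11 mice the groups overlapped, but in each of the 3 litters every OSM mouse was below every PBS mouse. Of the 17050 genes tested, 0.845% had this pattern, and Osmr was the only one of the 7 subunits among them. With litter as a term, the log2 fold change (OSM against PBS) was -0.79 (SE 0.27), with an unadjusted p of 0.0134 and an adjusted p of 0.955 in edgeR's quasi-likelihood test. The difference thus did not pass the threshold. In edgeR, 0 of the 7 subunits were called at an adjusted p under 0.05, against 0% of all genes tested, and DESeq2 also called 0 of 7, against 0.757% of the genes to which it gave an adjusted p. In edgeR, 1 of 7 was lower at an unadjusted p under 0.05, against 2.71% of all genes. In bulk samples, fewer cells of a type that carries Osmr and less Osmr RNA per cell cannot be told apart.

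The size of the Osmr difference varied between litters, with mean log2 differences of -0.31 in litter 1, -0.74 in litter 2 and -1.82 in litter 3. Litter 3 held a single OSM mouse, mouse 9. Without mouse 9 the log2 fold change was -0.49 (unadjusted p = 0.0544 and adjusted p = 1 in edgeR), and without litter 3 it was also -0.49. Without mouse 5, the mouse with the highest rod markers, it was -0.68. The fitted values of all 10 mural cell markers were negative (median -0.74 on the log2 scale), those of all 4 red cell markers were positive (median 1.11, with 0 called in edgeR and 3 in DESeq2), and the median of all genes tested was -0.01. With the mural markers as a covariate the Osmr log2 fold change was -0.70, and with the Müller glia markers it was -0.42 (unadjusted p = 0.185 in edgeR). Each covariate was the mean of log2 CPM over its markers, with equal weight for rare ones. Mouse 9 had 0 reads for the Müller glia markers Rlbp1, Slc1a3, Kcnj10, Dkk3, Gfap and Abca8a. Whether the value of -0.42 reflects Müller glia transcripts or mouse 9 was not tested. The part of red cell and rod transcripts in the Osmr difference was not tested.

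Il6st showed a different pattern. OSM-injected mice 1, 2, 5, 6 and 9 had 189, 193, 124, 159 and 98.3 CPM. PBS-injected mice 3, 4, 7, 8, 10 and 11 had 159, 160.2, 89.5, 117, 154 and 154 CPM. Both OSM mice were above both PBS mice in litters 1 and 2, and the OSM mouse of litter 3 was below both of its littermates. Such separation within every litter, but not in 1 direction, was seen for 5.21% of genes tested. The fitted log2 fold change was 0.12 (SE 0.17, adjusted p = 1 in edgeR). The interaction of treatment with litter had an unadjusted p of 0.0103, against 6.42% of all genes with an unadjusted p under 0.05, and an adjusted p of 0.593. Without mouse 9 the Il6st log2 fold change was 0.35, with an unadjusted p of 0.0170 in edgeR, and its adjusted p remained 1. That unadjusted p was lower than the 0.0544 of Osmr in the same fit.

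For the LIF receptor chain, OSM-injected mice 1, 2, 5, 6 and 9 had 38.8, 62.8, 57.1, 34.3 and 12.9 CPM. Lifr was at 55.3, 53.9, 19.1, 47.8, 30.7 and 43.1 CPM in PBS-injected mice 3, 4, 7, 8, 10 and 11. The groups overlapped widely, and the log2 fold change was -0.19 (SE 0.36). Its direction depended on mouse 9, the lowest of all, without which it was 0.17. Il11ra1 ranged from 48.1 to 79.5 CPM after OSM (median 62.9) and from 41.4 to 85.4 CPM after PBS (median 61.8), with a log2 fold change of 0.11 (SE 0.21). Il27ra ranged from 28.4 to 44.7 CPM (median 36.3) and from 29.5 to 42.9 CPM (median 37.3), with a log2 fold change of -0.01 (SE 0.18). Il27ra thus had the smallest fitted difference of the 7 genes. For Il6ra and Cntfr the standard errors, 1.45 and 1.03, exceeded the log2 fold changes of -0.60 and 0.50. The adjusted p was 1 for each of these 5 genes in edgeR.

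**Figure D2:**
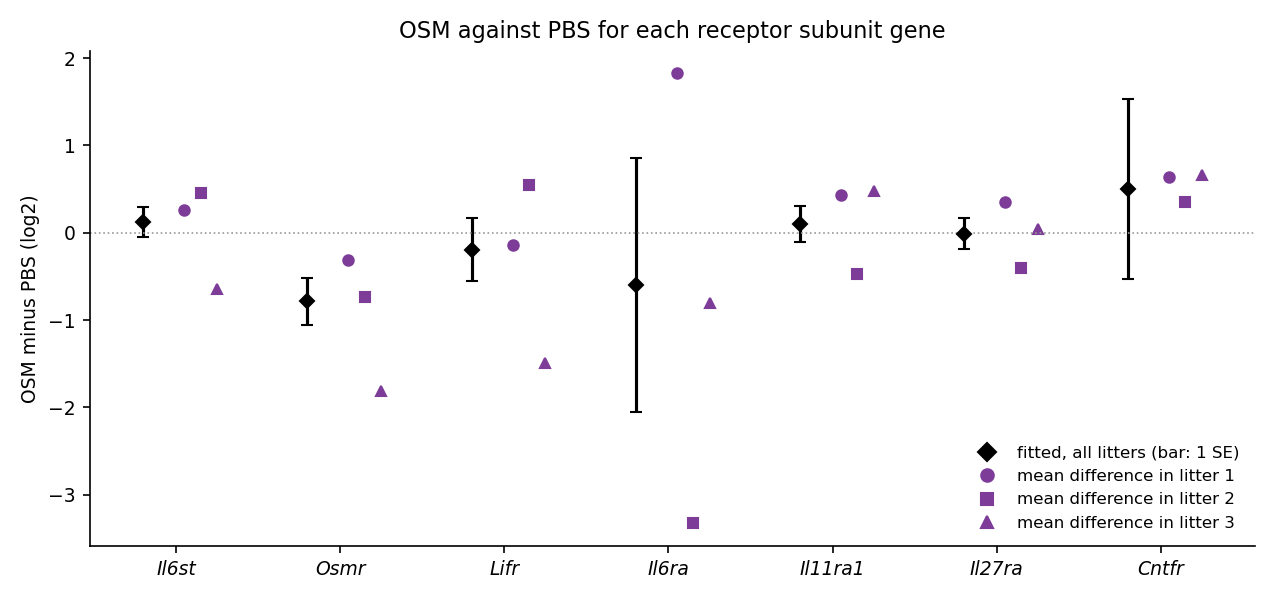
Difference between OSM and PBS on the log2 scale for each subunit gene. Black diamonds are edgeR fits with litter as a term and bars are 1 SE, and purple symbols are differences of mean log2 CPM (1 read added) within each litter. Osmr is below 0 in all 3 litters, at -0.31, -0.74 and -1.82, Cntfr, whose groups overlap, is above 0 in all 3, at 0.64, 0.35 and 0.66, and Il6st, Lifr, Il11ra1 and Il27ra have values on both sides of 0.

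The ratio of receptor chains within a mouse does not depend on library size. On the length-scaled level, Osmr was below Il6st in 11 of 11 mice, on average by 3.09-fold (mean log2 ratio -1.63 ± 0.63, SD, n = 11). The log2 ratio of Osmr to Il6st was -1.64, -1.54, -2.91, -2.31 and -2.33 in OSM-injected mice 1, 2, 5, 6 and 9. In PBS-injected mice 3, 4, 7, 8, 10 and 11 it was -0.96, -1.07, -1.32, -1.52, -1.34 and -0.98. Every OSM mouse was therefore below every PBS mouse, although the gap between the groups was only 0.025 on the log2 scale. Il6st transcripts exceeded those of Osmr 2.91- to 7.50-fold after OSM and 1.95- to 2.86-fold after PBS. For comparison, 0.299% of the other genes tested had a ratio to Il6st that separated the groups in this direction.

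With litter means removed, the ratio differed by -0.93 on the log2 scale (OSM minus PBS). The exact two-sided permutation test within litters gave p = 0.00926, the smallest value its 108 assignments allow, and an adjusted p of 0.0648 over the 7 ratios. With 7 ratios, a single one could therefore not pass an adjusted p under 0.05 in this test, whatever its size. The difference was negative in every litter, at -0.57, -1.19 and -1.17. Part of it lay in the denominator in litters 1 and 2, where the mean log2 difference of Il6st was 0.26 and 0.46, against -0.31 and -0.74 for Osmr. In litter 3 Il6st differed by -0.65, which made the ratio difference smaller than that of Osmr. When mice were permuted across litters, the difference was -0.95, the exact permutation p 0.00216 and the adjusted p 0.0152. This permutation allows smaller p-values, but it ignores litter and treats mice of different litters as interchangeable. Without mouse 9 the difference was -0.73, with an exact permutation p of 0.0556, the smallest that the remaining 36 assignments allow.

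**Figure D3:**
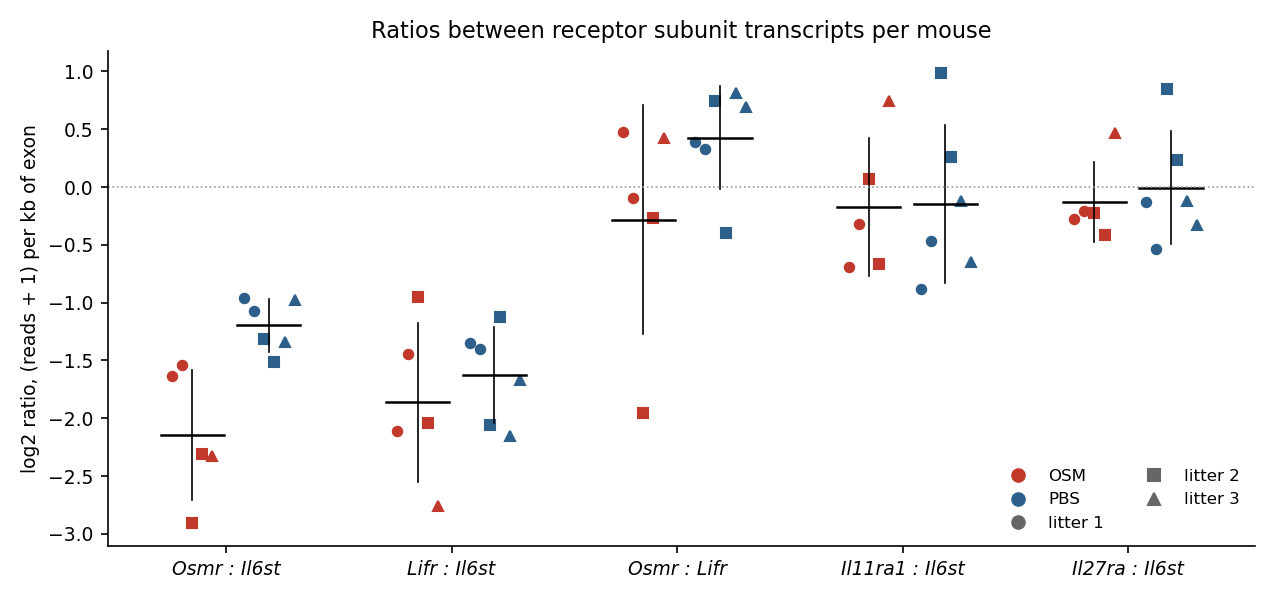
Log2 ratios between receptor subunit transcripts, with 1 added to each read count and both genes scaled by exon length, with 1 point per mouse (red, OSM; blue, PBS; shape, litter), group means and 1 SD. For Osmr to Il6st, the OSM mice lie between -2.91 and -1.54 and the PBS mice between -1.52 and -0.96, whereas the groups overlap for the other 4 ratios.

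The other ratios overlapped between the groups. Lifr was below Il6st in 11 of 11 mice, on average by 3.32-fold, and its log2 ratio differed by -0.32 between OSM and PBS (exact permutation p = 0.306, adjusted p = 0.535). Osmr to Lifr averaged 0.10 ± 0.79 on the log2 scale (SD, n = 11). The difference between OSM and PBS was -0.61 (exact permutation p = 0.13, adjusted p = 0.454), and its lowest value, -1.96, came from mouse 5. Without mouse 5 the difference was -0.28. Il11ra1 and Il27ra were near parity with Il6st, with mean log2 ratios of -0.16 ± 0.62 and -0.06 ± 0.41 and differences of -0.001 and -0.11 between treatments. In PBS-injected mouse 7 both exceeded Il6st, with log2 ratios of 0.98 and 0.84. Il6st exceeded Cntfr 137-fold on average, or 147-fold by coding transcript length, with a difference between treatments of 0.42 on the log2 scale. For Il6ra the mean log2 ratio was -6.94, or -7.71 by coding transcript length, and -6.53 without mouse 5, whose 0 reads leave its ratio to the 1 read added. The Il6ra difference between treatments was -0.85 with mouse 5 and 0.30 without it. The adjusted p was 0.535 or higher for these 4 ratios in the exact permutation test.

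Osmr also had the lowest p of the 7 subunits in the comparison of litters. Osmr averaged 56.8 ± 7.5 CPM in litter 1 (SD, n = 4), 25.0 ± 8.4 CPM in litter 2 (SD, n = 4) and 42.2 ± 24.1 CPM in litter 3 (SD, n = 3). The 4 mice of litter 2, at 13.2 to 32.7 CPM, did not overlap with those of litter 1, at 48.5 to 65.0 CPM. This separation was found for 3.65% of genes tested. The fitted litters spanned 1.23 on the log2 scale, with an unadjusted p of 0.00545 and an adjusted p of 0.221 in edgeR. Osmr was thus 1 of 7 subunits with an unadjusted litter p under 0.05, against 10.3% of all genes, and 0 of 7 passed the adjusted threshold, against 0.0176% of all genes. Without the filter on low counts its adjusted p was 0.00434 in edgeR, in a fit that called 2.16% of all genes. The likelihood ratio test of DESeq2 gave 0.0109 and called 6.88% of genes. Il6st averaged 175 ± 18 CPM in litter 1, 122 ± 28 CPM in litter 2 and 135 ± 32 CPM in litter 3 (unadjusted p = 0.0544 in edgeR). Il27ra and Il11ra1 spanned only 0.14 and 0.23 on the log2 scale between litters. Lifr, Cntfr and Il6ra spanned 0.93, 1.60 and 3.13, with unadjusted p of 0.158, 0.467 and 0.295 in edgeR.

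Among the 21 pairs of subunits, gp130 was compared with its signaling partners across mice. Log2 CPM of Il6st and Osmr correlated with Pearson's r = 0.66 (permutation p = 0.0282, adjusted p = 0.197) and Spearman's rho = 0.55 (permutation p = 0.083, adjusted p = 0.502) over 11 mice. With litter means removed r was 0.38, and with both litter and treatment removed it was 0.82. Il6st and Lifr had r = 0.68 (permutation p = 0.0212, adjusted p = 0.197) and rho = 0.53 (permutation p = 0.102, adjusted p = 0.502). Without the 2 mice farthest from the Il6st median, mice 7 and 9, r was 0.59 for Osmr and -0.06 for Lifr, so the relation with Lifr rested on those mice. Il6st and Il27ra had r = 0.05 (permutation p = 0.888, adjusted p = 0.954) and rho = 0.13 (permutation p = 0.715, adjusted p = 0.813). Osmr and Lifr, neighbors on the chromosome, had r = 0.46 (permutation p = 0.147, adjusted p = 0.488) and rho = 0.39 (permutation p = 0.235, adjusted p = 0.502). Their r was 0.82 without mouse 5 and 0.16 without mouse 9.

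The closest pair was Il6ra and Il27ra, with r = 0.78 (permutation p = 0.00656, adjusted p = 0.138) and rho = 0.85 (permutation p = 0.0021, adjusted p = 0.0441). With litter means removed r was 0.83 (permutation p = 0.00877 within litters, adjusted p = 0.184). Without mice 4 and 5, the farthest from the Il6ra median, r was 0.56 (permutation p = 0.118). With fewer mice and a narrower range of Il6ra, that value cannot decide whether the relation holds without them. Leaving out 1 mouse at a time, r was 0.67 to 0.89. By Pearson's r, 0 of the 21 pairs passed an adjusted p under 0.05 and 3 had an unadjusted p under 0.05, whereas Spearman's rho passed for 1 pair.

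**Figure D4:**
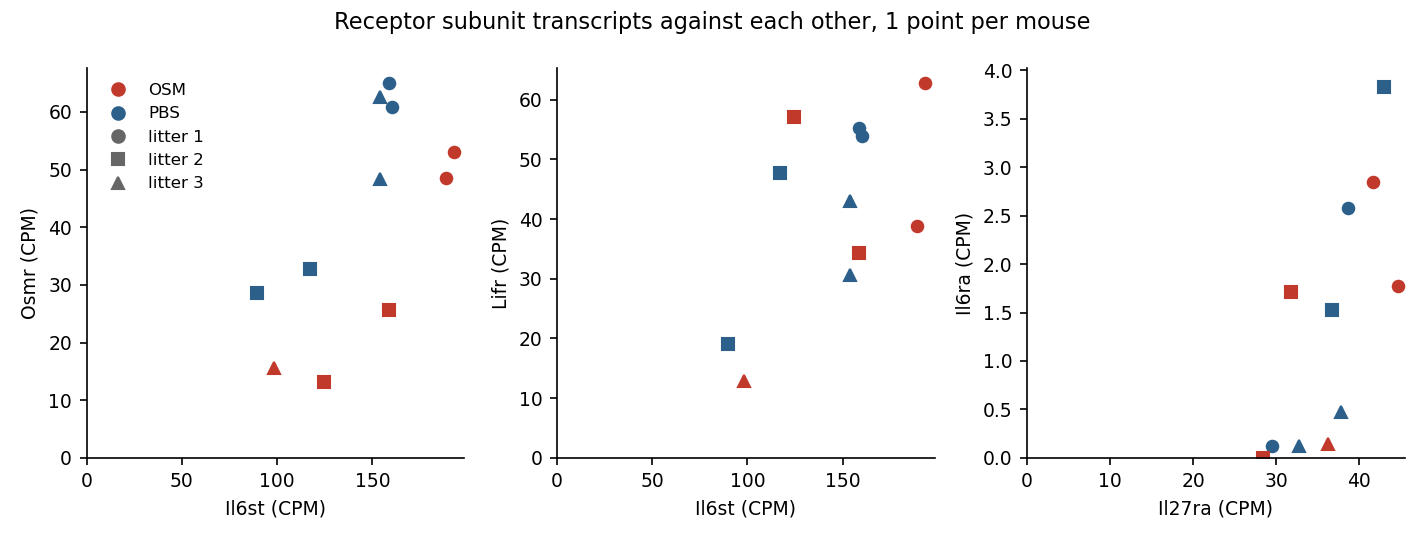
CPM of Osmr against Il6st, Lifr against Il6st, and Il6ra against Il27ra, on linear axes, with 1 point per mouse (red, OSM; blue, PBS; shape, litter). In each litter the OSM mice have less Osmr than the PBS mice, and PBS mouse 7 and OSM mouse 9 stand at the low end of both Il6st panels.

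Genes with the most similar profile were sought among 10904 genes with a mean of at least 100 reads, after litter means were removed from log2 CPM over the 11 mice. For Osmr these were Mki67, which encodes the proliferation marker Ki-67 (r = 0.966), Trpv2, which encodes a cation channel (r = 0.962), and Dkk2, which encodes a Wnt modulator (r = 0.953). For Lifr they were Hagh (r = 0.979), Etv5 (r = 0.957) and Brpf1 (r = 0.957), and for Il6st Vcpip1 (r = 0.950), Prkaa1 (r = 0.946) and Bmp1 (r = 0.945). The nearest genes were Acsf3, Sf3a2 and Sdhd for Il11ra1 (r of 0.919 to 0.935) and Dtx3, Cog1 and Kmt2b for Il27ra (r of 0.924 to 0.939). For Il6ra, Tmt1a, Arhgef25 and Sdc1 had r of 0.964 to 0.967, and for Cntfr, Cthrc1, Coa5 and Evi5l had r of 0.930 to 0.935. These values are descriptions of the highest among many genes.

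None of the 11 ligands of the family had reads in every mouse. Osm, Il27 and Il31 had no reads in any mouse, and the summed level of all 11 ligands was 0.136 to 7.42 CPM after OSM and 0.911 to 3.04 CPM after PBS. Only Il6, Ctf1 and Clcf1 passed the filter on low counts, and 0 of these 3 had an unadjusted p under 0.05 in edgeR. Of 8 other chains of the gp130 receptor group, 4 were tested and 0 were called in edgeR. Il12rb1, a chain of the IL-12 receptor, had 76, 74 and 85 reads in PBS-injected mice 4, 7 and 11 and 0 reads in the other 8 mice, so it passed the filter only through PBS mice and its p is not used. The leptin receptor gene Lepr was the only one of the 4 with reads in every mouse. It had 24.5 to 52.4 CPM, and its fitted log2 difference was -0.23 (SE 0.20, adjusted p = 1 in edgeR).

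Downstream of the receptors, 12 of 12 kinases, STATs and adaptors were tested and 0 were called in edgeR, against 0% of all genes tested. Their median log2 fold change was 0.03. Tyk2, which encodes a Janus kinase, was the 1 gene lower at an unadjusted p under 0.05, against 2.71% of all genes. Its fitted log2 difference was -0.97 (SE 0.34), with an adjusted p of 0.955 in edgeR. Stat3 itself had a log2 fold change of 0.02 (SE 0.09). Of 11 inhibitors and sheddases, 11 were tested, 0 were called and the median was -0.03. Ptpn6 had 160 and 307 reads in PBS-injected mice 3 and 4 and at most 1 read elsewhere, so it too passed the filter only through PBS mice and its p is not used. For Adam17, which encodes a protease that can shed the IL-6 receptor, the fitted value was -0.40 on the log2 scale (SE 0.17). Of 14 genes known to respond to STAT3, 13 were tested, 0 were called and the median was -0.01. Timp1, an inhibitor of matrix metalloproteases, had the lowest unadjusted p among them (log2 fold change 0.47, SE 0.21, adjusted p = 0.955 in edgeR). DESeq2 called 0 genes of these 5 lists of ligands, receptor chains and downstream genes, against 0.757% of the genes with an adjusted p.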

How the data were processed

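Sorted retinal endothelial cells of 11 mice were sequenced from poly(A)-primed, PCR-amplified cDNA as single reads. The authors aligned reads to GRCm39 with STAR and deposited unnormalized featureCounts read counts per GENCODE gene, without strand. Because the reads carry no molecular identifiers, intervals and floors cover counting error only. Symbols, positions and exon lengths were taken from GENCODE vM39 on GRCm39, which matched 54749 of 55359 genes. No libraries were copies of one another (lowest chi-square per gene 72.5 over 55 pairs).

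The main test was edgeR 4.0.16 (R 4.3.3) with TMM, filterByExpr with a count minimum of 10 (17050 genes), robust quasi-likelihood fits on litter and treatment, and Benjamini-Hochberg adjustment over all genes with a threshold of 0.05. Fits were tested on simulated data. Litter and the treatment by litter interaction were tested in the same way. DESeq2 1.42.0 was an alternative, because it is the tool of the paper. CPM used effective library sizes. Ratios were log2 of reads plus 1 per kilobase. Correlations used 100000 permutations. The members, the lists and the tests were chosen with earlier results of these data known. Genes named beyond the members were those with the lowest p or the highest level in a list, at most 4 a list, and the 3 most similar genes per member. Ligands and markers named for having no reads were chosen after their values were seen. The labels give each mouse as a separate sample. Alternatives were other normalizations, filters, tools, covariates and lengths, and leaving out each mouse or litter. Some items of the lists are not reported here.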

Additional observations from a re-analysis of the deposited data

Results flagged for a closer look

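In 28 groups of values (7 genes and 7 ratios in each of 2 treatments), 2 values stood apart from the rest of their group by Dixon's test at the 95% level, and chance alone flags about 1 in 20 groups. Both came from 1 animal, OSM-injected mouse 9, the only OSM mouse of litter 3. Its Cntfr level of 1.25 CPM compared with 0.290 to 0.544 CPM in the other 4 OSM mice, all of other litters. Its PBS-injected littermates, mice 10 and 11, had 0.681 and 0.878 CPM, whereas the highest values in litters 1 and 2 were 0.517 and 0.631 CPM. High Cntfr was thus shared by the mice of litter 3, at few reads. Its log2 ratio of Il27ra to Il6st of 0.47 compared with -0.41 to -0.21 in the other 4.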

How the results depend on the processing

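Leaving out 1 mouse at a time, the Osmr log2 fold change ranged from -0.98 to -0.49 and the difference of the Osmr to Il6st ratio from -0.99 to -0.73, in both cases nearest to 0 without mouse 9. Genes called between OSM and PBS numbered 0 in edgeR (846 at an unadjusted p under 0.05), 0 in every fit without 1 mouse, 65 without the filter on low counts and 168 with DESeq2's Wald test, and no subunit was among them. Genes called between litters numbered 3, 0 to 44 without 1 mouse, 625 without the filter, 24 without the treatment term and 988 with DESeq2. The interaction gave 0 genes, and 305 without the filter. Of the 7 ratios, 0 passed within litters and without any 1 mouse, where the number of assignments keeps a single ratio from passing. In the permutation over all mice, which ignores litter, 1 passed (Osmr to Il6st, difference -0.95). Of the correlations, 0 passed with litter means removed, 0 to 1 without 1 mouse, and 1 without the 2 mice farthest from the median, Il6ra with Cntfr (r = -0.87, permutation adjusted p = 0.0269). Both genes of that pair had few reads, and their r was -0.35 over all 11 mice and -0.02 with litter means removed. Il6st with Lifr was -0.0557 without its 2 farthest mice.

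Small fold changes turned direction. Without litter 2 they were -0.0929 for Il6st, 0.12 for Il6ra and 0.22 for Il27ra, without litter 3 they were 0.17 for Lifr and -0.0224 for Il11ra1, and without litter 1 -0.0839 for Il11ra1. With Müller glia markers they were 0.11 for Lifr and 0.080 for Il27ra, with mural markers -0.0584 for Il11ra1, and without the litter term 0.0070 for Il27ra. The cause was not tested. Without 1 mouse the ranges were -0.46 to 0.17 for Lifr, -0.0232 to 0.24 for Il11ra1 and -0.12 to 0.0719 for Il27ra, and for the ratios to Il6st -1.68 to 0.30 for Il6ra, -0.31 to 0.23 for Il11ra1 and -0.32 to 0.0748 for Il27ra. No paired analysis was made, because each sample was 1 mouse in 1 group. Litter entered the main tests of OSM against PBS as a term or by permutation within litters.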
